A study of Homo sapiens with 12 samples.

Results

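Transcript levels of 10 genes of topoisomerases, of the removal of trapped topoisomerase and of carbonyl and quinone reduction were followed in HEL cells. HEL is an established human erythroleukemia line used as a model of acute myeloid leukemia. The genes were taken by name from the table of fragment counts, where they are 10 of the 26481 genes with a complete set of counts. All 10 passed the filter on low counts and belong to the 14164 genes tested. They are the topoisomerases TOP1, TOP2A and TOP2B, the phosphodiesterases TDP1 and TDP2, the carbonyl reductases CBR1, CBR3 and AKR1C3, and the quinone reductases NQO1 and POR. The study exposed barcoded HEL cells to drugs for 72 to 74 h, let the survivors regrow for about 30 days to the number of cells seeded, and sequenced RNA from live cells of these cultures. The 12 libraries were untreated cells cultured with dimethyl sulfoxide (NT, n = 2), relapses after 1.8 µM doxorubicin (Doxo, n = 3), relapses after doxorubicin and 6 µM cytarabine (Doxo+Cyta, n = 3), and relapses after the same 2 drugs combined with decitabine at 0.1 µM (Doxo+Cyta+DAC, n = 4). Decitabine is a cytidine analog that blocks the methylation of new DNA. All groups carried the barcode library and all treated groups had doxorubicin. A relapse culture had regrown from the few cells that outlived the drugs, so the treatment and the selection of cells cannot be told apart.

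Doxorubicin is an anthracycline that slips between DNA bases and traps type II topoisomerases on the strand breaks they make. TOP2A is the form of dividing cells and is made most in late S phase and G2, TOP2B is present in dividing and resting cells and acts at transcribed genes, and TOP1, which nicks 1 strand, is the target of other drugs. TDP2 cuts trapped type II topoisomerase from DNA ends and TDP1 does the same for TOP1. Carbonyl reductases turn doxorubicin into its alcohol, doxorubicinol, while POR passes single electrons from NADPH to cytochromes P450 and to the quinone of doxorubicin, and NQO1 reduces quinones by 2 electrons at once.

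Total counts lay between 12763582 and 19106235 per library, and the limit of 3 counts stood at 0.154 to 0.238 counts per 1000000 (CPM), which covers counting error only. The defining markers of the line were present: all 9 erythroid markers reached 1 CPM in every library, with sums of 5027 to 9411 CPM, and so did 3 of 4 megakaryocyte markers, all but PF4. No B cell, fibroblast, epithelial or endothelial marker reached 1 CPM in every library, nor did CD3D, CD3E or CD14. Of the other T cell and monocyte markers, CD2 had group means of 26.9 to 50.5 CPM, LYZ of 27.5 to 40.3 CPM and CSF1R of 0.619 to 3.6 CPM. Some group means also passed 1 CPM for CD79A (1.37 to 4.53 CPM), VWF (0.212 to 1.79 CPM) and COL1A1 (0.384 to 1.1 CPM). The part of these markers in the results was not tested. Doxo+Cyta replicate 20 and Doxo replicate 4 lay farthest from the other replicates of their groups, at root-mean-square differences of 0.544 and 0.498 in log2 CPM over all tested genes, against 0.294 to 0.435 for the other libraries. Many of the results that rest on these libraries are given with and without them. Nothing in the labels says that the libraries of a group came from separate experiments, so p-values measure the spread between these samples.

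Per length of transcript, TOP2A was the most abundant of the 10 genes. Its median over the 12 libraries was 132 reads per kilobase of exon per 1000000 counts (RPKM), with a range of 93.1 to 160, and 96.6% of the tested genes had a lower mean. TOP1 followed with a median of 70.6 RPKM (47.5 to 82.6) and TOP2B with 61.4 RPKM (41.5 to 77.1). The range of TOP2A did not overlap that of TOP1, whereas TOP1 and TOP2B overlapped. TDP2 and CBR1 came next with overlapping ranges and medians of 19.6 and 19.4 RPKM, above TDP1 with 10.6 RPKM (7.53 to 12). POR had a median of 6.03 RPKM, AKR1C3 of 5.38 RPKM, CBR3 of 2.34 RPKM and NQO1 of 1.83 RPKM, and each of these ranges overlapped that of its neighbor. The spread over libraries was smallest for TDP1 and the topoisomerases, where the highest library held 1.59 to 1.86 times the RPKM of the lowest, and larger for POR (3.5 times) and CBR3 (5.63 times).

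Relative to NT, few of the genes changed in the relapses without decitabine. A gene was called at an adjusted p under 0.05. TOP2B, which fell, was the only one of the 10 called in Doxo, where 10.7% of all tested genes passed and 4.63% fell, and the only one called in Doxo+Cyta, where 1.46% passed and 0.551% fell. With decitabine, 4 of 10 were called relative to NT: CBR1, NQO1 and POR were higher and TOP2A was lower, beside 48.7% of all tested genes, 24.9% higher and 23.7% lower. In Doxo+Cyta+DAC relative to Doxo 7 of 10 were called, 6 of them higher, where 59.5% of all tested genes were called, 29.1% higher and 30.4% lower. Relative to Doxo+Cyta 6 of 10 were called and all 6 were higher, where 60.3% of all tested genes were called, 29.8% higher and 30.5% lower. The shares of the 10 genes called in either direction were thus near those of all genes in the comparisons with decitabine. Doxo+Cyta and Doxo gave no call among the 10 genes by the quasi-likelihood test of edgeR (0 called, 0 at an unadjusted p under 0.05, and 0 with DESeq2), where 3.4% of all tested genes were called and 18.9% had an unadjusted p under 0.05. The median log2 fold change of the 10 genes was 0.42 in Doxo+Cyta+DAC relative to Doxo and 0.48 relative to Doxo+Cyta, beside -0.006 and 0.0 for all tested genes, while the median size of change without regard to sign was 0.54 and 0.53, beside 0.57 and 0.58. The 3 comparisons with NT share the same 2 libraries. Without Doxo replicate 4 and Doxo+Cyta replicate 20, left out after the data were seen, 3 of the 10 were called in Doxo relative to NT, 2 of them in Doxo+Cyta and, as before, 4 in Doxo+Cyta+DAC, where 37.4%, 14.5% and 60.7% of the tested genes then passed. By the ranges of the libraries alone, NT did not overlap Doxo in 6 of the 10 genes, Doxo+Cyta in 4 and Doxo+Cyta+DAC in 5, where 49.0%, 40.6% and 67.1% of all tested genes did not overlap. Doxo+Cyta+DAC did not overlap Doxo in 8 and Doxo+Cyta in 6, beside 60.0% and 57.2%, and Doxo+Cyta did not overlap Doxo in 1, NQO1, beside 21.0%.

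**Figure D1:**
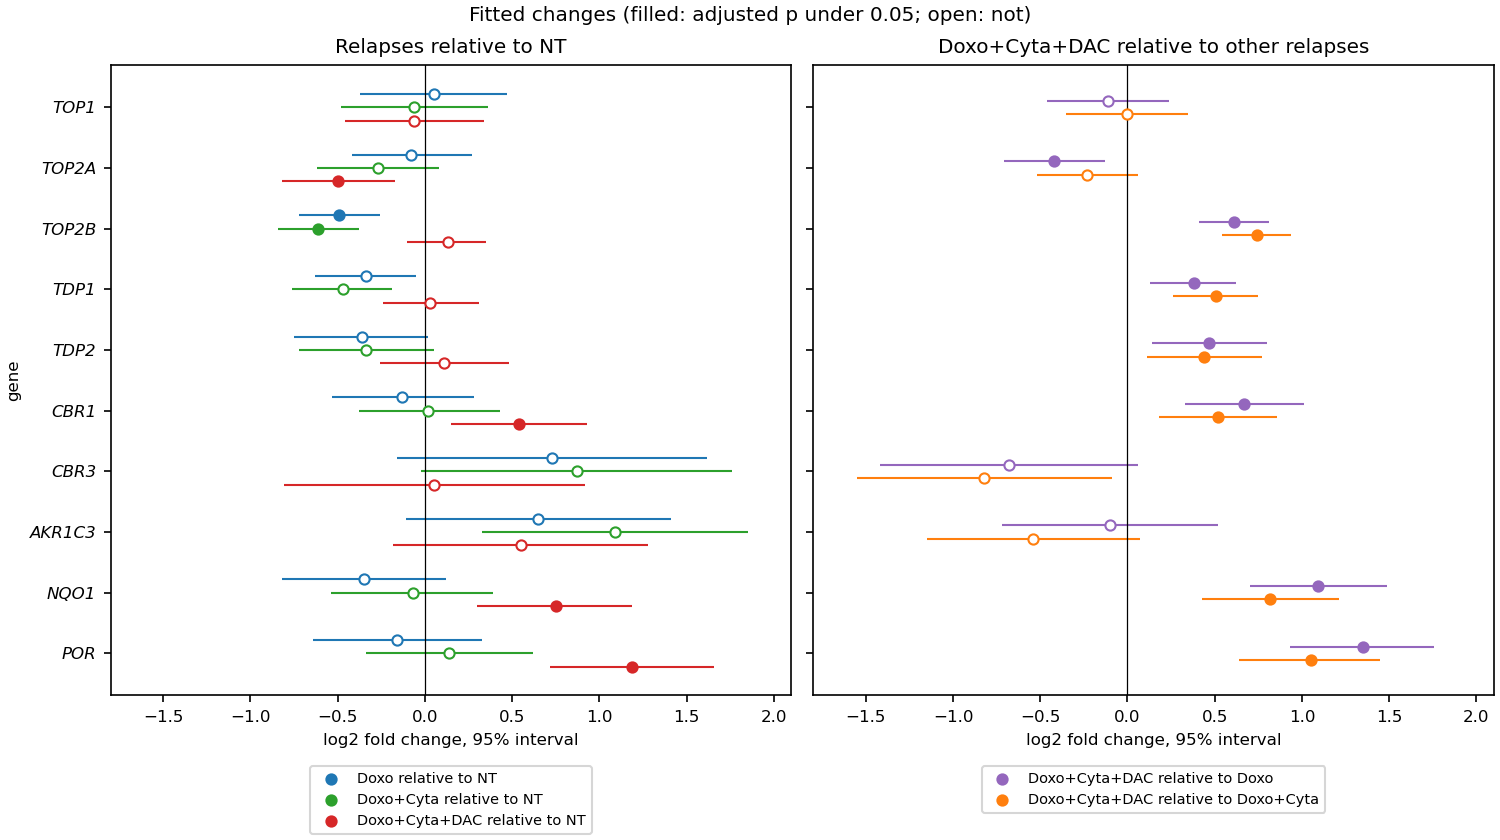
Fitted log2 fold change of each gene (horizontal axis) with its 95% interval, for the relapses relative to NT (left) and for Doxo+Cyta+DAC relative to the other relapses (right). Filled points passed an adjusted p under 0.05 in edgeR. TOP2B lies left of 0 for Doxo and Doxo+Cyta on the left and right of 0 for both comparisons on the right, and POR is farthest to the right (log2 fold change 1.19 relative to NT).

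The genes of the type II topoisomerases lie on different chromosomes, TOP2A at chr17:40388521-40417950 and TOP2B at chr3:25597905-25664372, both on the minus strand of GRCh38. They are the direct targets of doxorubicin and were called in opposite directions in Doxo+Cyta+DAC relative to Doxo. The sequences before their starts are therefore shown, as given by RefSeq for GRCh38.p14 and read 5′ to 3′ along the gene. Capitals mark 2 motifs known from promoters of cell cycle genes, searched on both strands: the CCAAT box (CCAAT or ATTGG) and the cell cycle genes homology region, or CHR (TTTGAA or TTCAAA). The TOP2A stretch is chr17:40417951-40418146 and stops where the gene starts in the count table. The TOP2B stretch is chr3:25664908-25665157, before the upstream of its 2 listed starts. In the count table TOP2B starts at the other one, so the stretch shown does not adjoin the counted gene.
TOP2A: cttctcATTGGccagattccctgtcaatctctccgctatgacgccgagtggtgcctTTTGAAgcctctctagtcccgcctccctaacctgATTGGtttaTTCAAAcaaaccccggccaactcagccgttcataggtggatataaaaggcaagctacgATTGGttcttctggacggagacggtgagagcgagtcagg
TOP2B: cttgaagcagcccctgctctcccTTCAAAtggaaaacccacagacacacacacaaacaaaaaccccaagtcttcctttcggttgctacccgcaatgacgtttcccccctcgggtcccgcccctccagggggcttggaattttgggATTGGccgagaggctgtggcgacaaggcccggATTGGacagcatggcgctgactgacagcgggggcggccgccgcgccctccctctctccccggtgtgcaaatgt

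In the full 250 bases before its RefSeq start TOP2A held 4 CCAAT boxes, of which 3 lie in the stretch shown, a number reached by 0.874% of 35116 human promoters of that length, and 2 CHR motifs, reached by 1.72%. The TOP2B window shown held 2 CCAAT boxes, reached by 9.53% of promoters, and 1 CHR motif, reached by 13.3%. The window before the other TOP2B start, 535 bases downstream, held none of these letters and had 46 CpG dinucleotides, where the median promoter had 11 and TOP2A had 12. These matches describe the letters only, and neither binding nor methylation was measured in these files.

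TOP2B fell in the relapses without decitabine and stood at or above the level of NT in those with it. It measured 360 and 372 CPM in NT. In Doxo it measured 296, 246 and 242 CPM, and in Doxo+Cyta 222, 249 and 249 CPM. The 4 Doxo+Cyta+DAC libraries measured 388, 412, 396 and 402 CPM. The 6 relapses without decitabine thus lay below every NT library and the 4 with decitabine above them. The level in Doxo was 1.4-fold lower than in NT (log2 change -0.49, SE 0.11, adjusted p = 0.0136, edgeR) and in Doxo+Cyta 1.53-fold lower (-0.61, SE 0.11, adjusted p = 0.0239). Doxo+Cyta+DAC was 1.53-fold higher than Doxo (0.61, SE 0.09, adjusted p = 7.15e-05, edgeR) and 1.67-fold higher than Doxo+Cyta (0.74, SE 0.09, adjusted p = 1.33e-05). Relative to NT its log2 fold change was 0.13 (95% interval -0.10 to 0.35, adjusted p = 0.334, edgeR), and although the libraries did not overlap, 67.1% of all tested genes did not overlap in that comparison either. In bulk RNA, fewer cells with the transcript and less of it per cell cannot be told apart.

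The calls of TOP2B relative to NT rested on few libraries. Without NT replicate 1 or 2 the log2 fold changes lay between -0.64 and -0.46. Those fits leave a lone NT sample and cannot show whether a call holds, so their calls are not given. Leaving out Doxo replicate 5 or 6 for Doxo, or Doxo+Cyta replicate 19 for Doxo+Cyta, took the adjusted p to between 0.0596 and 0.0635 (edgeR). The share of all tested genes called then fell too, to 3.27% and 3.53% for Doxo and 0.184% for Doxo+Cyta. Doxo replicate 4, at 296 CPM, was the library of its group nearest to NT, and without it and Doxo+Cyta replicate 20 the log2 fold change of TOP2B was -0.61 in Doxo (adjusted p = 0.000116, edgeR) and -0.66 in Doxo+Cyta (adjusted p = 0.00053). The differences between relapses with and without decitabine were called in all 20 alternatives, between 0.56 and 0.76.

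TOP2A, the other direct target, was lower in the relapses with decitabine than in NT and Doxo. TOP2B in the same relapses was higher than in Doxo and not called relative to NT. It measured 812 and 922 CPM in NT, 736, 869 and 863 CPM in Doxo, and 789, 535 and 836 CPM in Doxo+Cyta. The Doxo+Cyta+DAC libraries measured 593, 576, 595 and 690 CPM. All 4 lay below every NT and Doxo library, while Doxo+Cyta replicate 20, at 535 CPM, was the lowest of the 12. TOP2A was 1.41-fold lower in Doxo+Cyta+DAC than in NT (log2 change -0.50, SE 0.15, adjusted p = 0.0148, edgeR) and 1.34-fold lower than in Doxo (-0.42, SE 0.14, adjusted p = 0.0156). Relative to Doxo+Cyta the log2 fold change was -0.23 (95% interval -0.52 to 0.06, adjusted p = 0.158, edgeR), and without Doxo+Cyta replicate 20 it was -0.41 (adjusted p = 0.00244). Without NT replicate 2 the log2 fold change relative to NT was -0.41, in a fit with a lone NT sample whose calls are not given. The call relative to Doxo was lost without Doxo replicate 5 or 6 (adjusted p = 0.0586 and 0.0558, edgeR).

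TOP2A is a G2/M gene, so it was set beside lists of cell cycle genes from which it had been left out. Of 42 S-phase genes tested, 33 rose in Doxo+Cyta+DAC relative to NT, 39 relative to Doxo and 38 relative to Doxo+Cyta, with median log2 fold changes of 0.73, 1.13 and 1.09, where the medians of all tested genes were 0.02, -0.01 and 0.0. CLSPN, an adaptor of the replication checkpoint, rose from 21.1 ± 2.46 CPM in Doxo+Cyta to 113 ± 6.29 CPM in Doxo+Cyta+DAC (SD, n = 3 and 4; log2 fold change 2.42, SE 0.22, adjusted p = 7.46e-07, edgeR). UHRF1, which guides maintenance DNA methylation at the replication fork, rose from 28.3 ± 6.14 to 138 ± 9.15 CPM in the same comparison (SD, n = 3 and 4). Of 51 G2/M genes, 6 rose and 19 fell in Doxo+Cyta+DAC relative to NT, 9 rose and 26 fell relative to Doxo, and 14 rose and 19 fell relative to Doxo+Cyta. Without regard to direction the called shares, 49.0%, 68.6% and 64.7%, were near the 48.7%, 59.5% and 60.3% of all tested genes. By direction most G2/M calls relative to NT and Doxo were lower. Of all tested genes 24.9% were higher and 23.7% lower relative to NT, 29.1% and 30.4% relative to Doxo, and 29.8% and 30.5% relative to Doxo+Cyta. The median log2 fold changes of the list were -0.21, -0.24 and -0.11. BUB1, a kinase of the spindle checkpoint, fell from 736 ± 12.5 CPM in NT (n = 2) to 285 ± 36.1 CPM in Doxo+Cyta+DAC (n = 4; log2 fold change -1.37, SE 0.14, adjusted p = 6.34e-06, edgeR), and NEK2, a kinase of the centrosome, fell by 1.43 on the log2 scale. Among those that rose in this comparison, TUBB4B went from 160 ± 2.46 to 307 ± 11.7 CPM (log2 fold change 0.94, SE 0.17, adjusted p = 0.000593, edgeR).

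The mean of the S-phase list was 5.91 and 5.95 log2 CPM in NT, 5.38 to 5.84 in Doxo, 5.50 to 5.65 in Doxo+Cyta and 6.62 to 6.70 in Doxo+Cyta+DAC. The mean of the G2/M list was 6.94 and 6.97 in NT, 6.89 to 7.07 in Doxo, 6.72 to 6.86 in Doxo+Cyta and 6.70 to 6.80 in Doxo+Cyta+DAC. The libraries with decitabine were therefore the highest of all for S-phase genes, while for G2/M genes they overlapped the Doxo+Cyta range. TOP2A stood 2.72 and 2.88 log2 units above the G2/M mean of its own library in NT, 2.64 to 2.75 in Doxo, 2.35 to 2.85 in Doxo+Cyta and 2.44 to 2.63 in Doxo+Cyta+DAC. Doxo replicate 4, the Doxo library nearest to NT in TOP2B, had the highest S-phase mean of its group, 5.84, against 5.38 and 5.41. The part of the cell cycle in the levels of the 10 genes was not tested.

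Within each library, the ratio of TOP2A to TOP2B per length gives the balance of the 2 forms without regard to library scaling. TOP2A was 2.09 and 2.30 times as abundant as TOP2B in NT, 2.31, 3.28 and 3.31 times in Doxo, and 3.30, 2.00 and 3.12 times in Doxo+Cyta. In Doxo+Cyta+DAC it was 1.42, 1.30, 1.40 and 1.59 times as abundant, lower than in every other library. TOP2B thus made up 38.5% to 43.5% of the pair with decitabine, 30.3% and 32.3% in NT, 23.2% to 30.2% in Doxo and 23.3% to 33.3% in Doxo+Cyta. The log2 ratio was 0.51 ± 0.12 (SD, n = 4) in Doxo+Cyta+DAC, against 1.55 ± 0.29 in Doxo (n = 3; exact permutation test, two-sided, p = 0.0571), 1.46 ± 0.40 in Doxo+Cyta (n = 3; exact p = 0.0571) and 1.13 ± 0.10 in NT (n = 2; exact p = 0.133). Those are the smallest p-values these group sizes allow, and after adjustment over the 6 comparisons of the ratio they were 0.171, 0.171 and 0.266 (exact permutation tests). Doxo relative to NT gave exact p = 0.2, also the smallest possible, at a difference of 0.42. Doxo replicate 4 and Doxo+Cyta replicate 20, with 2.31 and 2.00, lay near the NT values rather than with their own groups. Without Doxo replicate 4 the log2 difference of Doxo from NT was 0.59. The difference of Doxo+Cyta from NT was 0.32 with all libraries and 0.55 without Doxo+Cyta replicate 20.

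TOP1, at chr20:41028822-41124486 on the plus strand, was not called in any comparison. It measured 254 and 271 CPM in NT, 230, 296 and 289 CPM in Doxo, 308, 177 and 272 CPM in Doxo+Cyta, and 225, 230, 298 and 256 CPM in Doxo+Cyta+DAC. The groups overlapped in all 6 comparisons. The lowest library was again Doxo+Cyta replicate 20. The log2 fold change of Doxo+Cyta+DAC was -0.06 relative to NT (95% interval -0.46 to 0.34, adjusted p = 0.819, edgeR) and -0.11 relative to Doxo (-0.46 to 0.24, adjusted p = 0.59). A fall of more than 0.46 thus lay outside both intervals, as did a rise of more than 0.34 relative to NT or 0.24 relative to Doxo. Smaller changes were not excluded. Of its exon bases 5.46% overlap PLCG1-AS1, a small share.

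Among 7 other topoisomerases and partner proteins tested, 4 rose and 1 fell in Doxo+Cyta+DAC relative to each of the other relapses, where 59.5% and 60.3% of all genes were called. That is 71.4% of this list in each, with median log2 fold changes of 0.30 and 0.75. BLM, the helicase that works with TOP3A on crossed DNA strands, rose from 29.6 ± 4.12 CPM in Doxo and 32.7 ± 0.801 CPM in Doxo+Cyta to 65.6 ± 1.48 CPM (SD, n = 3, 3 and 4; log2 fold changes 1.15 and 1.0, adjusted p = 1.51e-06 and 3.1e-06, edgeR). BLM is also a member of the S-phase list. TOP3B, a topoisomerase that acts on RNA as well as DNA, rose from 13.2 ± 2.9 CPM in Doxo to 26.0 ± 2.03 CPM (n = 3 and 4; log2 fold change 0.98, adjusted p = 0.000383, edgeR). TDRD3, the scaffold that carries TOP3B, moved the other way, from 106 ± 29.5 CPM in Doxo and 85.2 ± 4.53 CPM in Doxo+Cyta to 32.7 ± 5.75 CPM (n = 3, 3 and 4; log2 fold changes -1.70 and -1.38, adjusted p = 3.1e-06 and 1.46e-05, edgeR).

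The enzymes that free DNA ends from trapped topoisomerase, TDP1 at chr14:89955902-90044764 and TDP2 at chr6:24649977-24666887, were higher in the relapses with decitabine than in those without. TDP1 measured 43.1 and 40.9 CPM in NT, 38.6, 31.4 and 29.5 CPM in Doxo, and 29.6, 33.0 and 28.2 CPM in Doxo+Cyta. In Doxo+Cyta+DAC it measured 42.1, 43.3, 41.7 and 45.0 CPM. These 4 libraries lay above all 6 relapses without decitabine and overlapped NT. TDP1 was 1.3-fold higher than in Doxo (log2 change 0.38, SE 0.11, adjusted p = 0.0113, edgeR) and 1.42-fold higher than in Doxo+Cyta (0.51, SE 0.11, adjusted p = 0.00164), and 0.03 away from NT (95% interval -0.24 to 0.31). Leaving out Doxo replicate 5 or 6 ended the first call (adjusted p = 0.057 and 0.0724, edgeR).

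Relative to NT, the log2 fold change of TDP1 was -0.34 in Doxo (95% interval -0.63 to -0.05, adjusted p = 0.114, edgeR) and -0.47 in Doxo+Cyta (-0.76 to -0.19, adjusted p = 0.0832), neither of which was called. Doxo replicate 4, at 38.6 CPM, lay nearest to NT. Without Doxo replicate 4 and Doxo+Cyta replicate 20, a choice made after the data were seen, both differences passed, at -0.50 (adjusted p = 0.00176, edgeR) and -0.56 (adjusted p = 0.0029). DESeq2 with all libraries also called the second (-0.49, adjusted p = 0.0166).

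TDP2 measured 43.4 and 41.4 CPM in NT, 28.6, 37.0 and 33.3 CPM in Doxo, 33.9, 30.3 and 36.5 CPM in Doxo+Cyta, and 42.8, 60.1, 41.4 and 38.5 CPM in Doxo+Cyta+DAC. All libraries with decitabine lay above all relapses without it, and replicate 31 stood above the rest. TDP2 was 1.38-fold higher in Doxo+Cyta+DAC than in Doxo (log2 change 0.47, SE 0.15, adjusted p = 0.0168, edgeR) and 1.36-fold higher than in Doxo+Cyta (0.44, SE 0.15, adjusted p = 0.022). The second call was lost without Doxo+Cyta+DAC replicate 31 (0.28, adjusted p = 0.0677, edgeR), without Doxo+Cyta replicate 19 or 20 (adjusted p = 0.054 and 0.0663) and with upper-quartile scaling (adjusted p = 0.0523), and the first without Doxo replicate 4 (0.38, adjusted p = 0.0596). With Doxo replicate 4 and Doxo+Cyta replicate 20 both left out, the differences were 0.38 and 0.37 (adjusted p = 0.0374 and 0.0438, edgeR). Relative to NT the log2 fold change of TDP2 was -0.36 with doxorubicin alone, -0.34 after cytarabine was added and 0.11 after decitabine was added as well, none of them called (adjusted p = 0.204, 0.314 and 0.631, edgeR).

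Of 21 other genes that repair breaks with trapped topoisomerase, all tested, 8 rose and 3 fell in Doxo+Cyta+DAC relative to NT, 10 rose and 4 fell relative to Doxo, and 8 rose and 2 fell relative to Doxo+Cyta. The called shares of 52.4%, 66.7% and 47.6% were near or below those of all tested genes, at 48.7%, 59.5% and 60.3%, and the median log2 fold changes of the list were 0.25, 0.24 and 0.23, beside 0.02, -0.01 and 0.0. PRKDC, the kinase of end joining, measured 310 ± 76.2 CPM in Doxo (n = 3), 310 ± 53.8 CPM in Doxo+Cyta (n = 3) and 804 ± 80.0 CPM in Doxo+Cyta+DAC (SD, n = 4), a log2 fold change of 1.37 in both comparisons (SE 0.16, adjusted p = 7.66e-06 and 6.18e-06, edgeR). FEN1, which cuts DNA flaps and is also in the S-phase list, rose from 44 ± 0.562 CPM in NT (n = 2) to 104 ± 10.0 CPM (n = 4; log2 fold change 1.24, SE 0.20, adjusted p = 0.000251, edgeR). SPRTN, a protease that digests proteins bound to DNA, rose from 10.7 ± 0.752 to 19.4 ± 1.5 CPM in the same comparison (log2 change 0.86, SE 0.15, adjusted p = 0.000417, edgeR). XRCC1, the scaffold of the pathway that follows TDP1, fell from 123 ± 2.25 CPM in NT to 83.2 ± 7.49 CPM (log2 change -0.56, SE 0.12, adjusted p = 0.00158, edgeR), and ATM, the kinase that signals double-strand breaks, fell from 93.7 ± 12.8 to 46.9 ± 5.08 CPM (-1.0, SE 0.24, adjusted p = 0.00353).

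Of the enzymes that make doxorubicinol, CBR1 rose with decitabine, while its paralog CBR3 and AKR1C3 were not called in any comparison. CBR1 (chr21:36069924-36073177) and CBR3 (chr21:36134965-36146562) are neighbors on the plus strand, 61787 bases apart. CBR1 measured 37.6 and 32.2 CPM in NT, 38.1, 25.8 and 32.1 CPM in Doxo, 33.6, 43.0 and 29.9 CPM in Doxo+Cyta, and 59.5, 45.4, 50.4 and 48.2 CPM in Doxo+Cyta+DAC. All 4 libraries with decitabine exceeded the other 8. CBR1 was 1.46-fold higher than in NT (log2 change 0.54, SE 0.18, adjusted p = 0.0235, edgeR), 1.59-fold higher than in Doxo (0.67, SE 0.16, adjusted p = 0.00251) and 1.43-fold higher than in Doxo+Cyta (0.52, SE 0.16, adjusted p = 0.0115). The call relative to NT was lost without Doxo+Cyta+DAC replicate 30 (adjusted p = 0.0604, edgeR) and with upper-quartile scaling (0.0601). Without NT replicate 1 or 2 the log2 fold change was 0.66 or 0.43, in fits with a lone NT sample whose calls are not given. The call relative to Doxo+Cyta was lost without Doxo+Cyta replicate 22 (0.40, adjusted p = 0.0695, edgeR).

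CBR3 was low, at 2.11 and 2.03 CPM in NT, 3.00, 3.43 and 3.85 CPM in Doxo, 2.04, 5.80 and 3.54 CPM in Doxo+Cyta, and 2.27, 1.03, 2.83 and 2.38 CPM in Doxo+Cyta+DAC. Every library was above the limit of 3 counts. The log2 fold change of Doxo+Cyta relative to NT was 0.87 (SE 0.41, 95% interval -0.02 to 1.76, adjusted p = 0.255, edgeR). The difference with the lowest adjusted p was that of Doxo+Cyta+DAC from Doxo+Cyta, at -0.82 (SE 0.34, 95% interval -1.55 to -0.09, adjusted p = 0.0516, edgeR), just short of the threshold, and 7 of 20 alternatives called it, DESeq2 among them (adjusted p = 0.0492). Doxo+Cyta replicate 20 had the highest level of all, and without it and Doxo replicate 4 the difference was -0.38 (adjusted p = 0.326, edgeR). In the deposited gene models CBR3-AS1 overlaps 8.99% of the exon bases of CBR3 and LOC100133286 overlaps 24.6% of those of CBR1. Counts were made without regard to strand, and by the default of the counting tool fragments on more than 1 gene are left out. Fragments in those stretches are thus counted for neither gene, while overlap absent from those models can add fragments of the other gene. By the transcripts of GENCODE 44 the overlap is larger for CBR3: 57.4% of the 100-base stretches of its transcripts also occur in CBR3-AS1, and 14.2% of those of CBR1 occur in CBR1-AS1 or another gene entry. The level of CBR3, and with it the ratio of CBR1 to CBR3, is therefore uncertain.

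The ratio of CBR1 to CBR3 per length was 10.2 and 9.06 in NT, 7.23, 4.28 and 4.74 in Doxo, 9.39, 4.22 and 4.81 in Doxo+Cyta, and 15, 25.1, 10.1 and 11.6 in Doxo+Cyta+DAC. Every library with decitabine thus exceeded all 6 relapses without it, at exact p = 0.0571 in each comparison (two-sided permutation test, the smallest possible for n = 4 and 3, and 0.171 after adjustment over 6). With decitabine the log2 ratio was 3.86 ± 0.58 (SD, n = 4), against 2.40 ± 0.40 in Doxo (n = 3) and 2.52 ± 0.62 in Doxo+Cyta (n = 3). It overlapped NT, at 3.26 ± 0.12 (n = 2; exact p = 0.267).

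AKR1C3 (chr10:5048766-5107686, plus strand), an aldo-keto reductase of steroids and anthracyclines, spread widely within both combination groups. It measured 7.56 and 6.73 CPM in NT, 9.84, 11.1 and 12.8 CPM in Doxo, 10.3, 19.3 and 16.1 CPM in Doxo+Cyta, and 11.9, 16.4, 6.82 and 6.81 CPM in Doxo+Cyta+DAC. The 6 relapses without decitabine lay above both NT libraries, whereas those with it fell into a pair above NT and a pair at its level. In Doxo+Cyta the level was 2.13 times that in NT (log2 change 1.09, SE 0.35, 95% interval 0.33 to 1.85), with an adjusted p of 0.119 in edgeR and 0.045 in DESeq2. The absence of overlap is no particular finding, as 40.6% of all tested genes did not overlap in that comparison. With all libraries the difference of AKR1C3 in Doxo+Cyta+DAC from Doxo+Cyta was -0.54 (adjusted p = 0.117, edgeR). It was -0.83 without Doxo+Cyta+DAC replicate 31 (adjusted p = 0.0128, edgeR) and -0.76 without Doxo+Cyta replicate 19 (adjusted p = 0.0422). Doxo+Cyta replicate 20 had the highest level of all, 19.3 CPM. Without it and Doxo replicate 4 that difference was -0.34 (adjusted p = 0.344, edgeR), and that of Doxo+Cyta from NT was 0.86 (adjusted p = 0.127).

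Of 17 other carbonyl and quinone reductases tested, 4 rose and 3 fell in Doxo+Cyta+DAC relative to NT, 6 rose and 4 fell relative to Doxo, and 3 rose and 5 fell relative to Doxo+Cyta, so the list held changes in both directions. Its called shares of 41.2%, 58.8% and 47.1% were at or below the 48.7%, 59.5% and 60.3% of all tested genes, with median log2 fold changes of 0.13, 0.41 and 0.02. MTRR, a flavoprotein related to POR that restores methionine synthase, rose from 33.1 ± 2.44 CPM in NT (n = 2) to 64.5 ± 1.56 CPM (SD, n = 4; log2 fold change 0.96, SE 0.13, adjusted p = 5.31e-05, edgeR). AKR1A1, an aldehyde reductase that also accepts doxorubicin, fell from 154 ± 5.73 to 96.2 ± 6.64 CPM in the same comparison (-0.68, SE 0.13, adjusted p = 0.000624, edgeR) and by 0.92 on the log2 scale relative to Doxo+Cyta.

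In Doxo+Cyta+DAC, POR gave the largest called difference of the 10 genes relative to NT and to each of the other relapses. The gene, at chr7:75915102-75986855 on the plus strand, measured 13.7 and 14.0 CPM in NT, 16.1, 11 and 10.2 CPM in Doxo, and 12.9, 19.6 and 13.3 CPM in Doxo+Cyta. In Doxo+Cyta+DAC it measured 35.5, 31.6, 33.0 and 26.1 CPM. All 4 libraries with decitabine lay well above the other 8, which overlapped each other across groups. POR was 2.28-fold higher than in NT (log2 change 1.19, SE 0.22, adjusted p = 0.000616, edgeR), 2.54-fold higher than in Doxo (1.35, SE 0.19, adjusted p = 4.53e-05) and 2.07-fold higher than in Doxo+Cyta (1.05, SE 0.19, adjusted p = 0.000294). It was the only one of the 10 genes to pass an adjusted p under 0.01 and a fold change over 2 in all 3 comparisons, where 16.2%, 21.6% and 23.3% of all tested genes did. By that rule 0 of the 10 passed in Doxo or in Doxo+Cyta relative to NT, where 1.55% and 0.0% of all tested genes did. Among the relapses without decitabine, Doxo replicate 4 and Doxo+Cyta replicate 20 were the highest of their groups, and without them POR in Doxo was lower than in NT (-0.42, adjusted p = 0.0458, edgeR) where with them it was -0.16 (adjusted p = 0.68).

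NQO1, at chr16:69709401-69726668 on the minus strand, was low but rose by a similar pattern. It measured 4.99 and 4.76 CPM in NT, 3.77, 4.13 and 3.6 CPM in Doxo, 4.58, 4.87 and 4.46 CPM in Doxo+Cyta, and 8.51, 9.01, 5.88 and 9.50 CPM in Doxo+Cyta+DAC. The libraries with decitabine were the 4 highest, replicate 32 being nearest to the rest. NQO1 was 1.68-fold higher than in NT (log2 change 0.75, SE 0.21, adjusted p = 0.00847, edgeR), 2.13-fold higher than in Doxo (1.09, SE 0.19, adjusted p = 0.000189) and 1.77-fold higher than in Doxo+Cyta (0.82, SE 0.18, adjusted p = 0.00144). Without NT replicate 1 or 2 the log2 fold change relative to NT was 0.78 or 0.71, in fits with a lone NT sample whose calls are not given. Doxo lay below NT in every library, but was not called (-0.35, 95% interval -0.82 to 0.12, adjusted p = 0.318, edgeR). In the deposited gene models no other gene overlaps the exons of NQO1. By the GENCODE transcripts, however, 12.1% of the 100-base stretches of NQO1 also occur in another gene entry. Fragments of that entry can thus add to the counts of NQO1, and their part in its rise was not tested.

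CBR1 and NQO1, the reductases that rose together in all 3 comparisons with decitabine and have a RefSeq promoter entry, are known targets of NRF2, the factor that binds the antioxidant response element, or ARE. The sequences before their starts are given from the same RefSeq source, up to the start of each gene in the count table: chr21:36069774-36069923 on the plus strand for CBR1 and chr16:69726669-69726810 on the minus strand for NQO1. Capitals mark the ARE core, TGACNNNGC or GCNNNGTCA.
CBR1: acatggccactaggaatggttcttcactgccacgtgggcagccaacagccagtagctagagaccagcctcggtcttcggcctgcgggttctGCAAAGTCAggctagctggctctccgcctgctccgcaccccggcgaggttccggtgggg
NQO1: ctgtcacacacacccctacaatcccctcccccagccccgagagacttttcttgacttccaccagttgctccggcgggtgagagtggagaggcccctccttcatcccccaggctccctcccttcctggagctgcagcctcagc

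CBR1 held 1 ARE core in the 250 bases before its RefSeq start, as did TOP1 and TDP2, and 10.9% of all promoters held at least 1. NQO1 held none in this window, which says nothing of sequence farther away. The promoter table matched 8 of the 10 genes, the others being CBR3 and POR.

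In the comparisons with decitabine the rest of the NRF2 list held calls in both directions. Their rate was about that of all genes when direction is left aside. Relative to NT most of the calls were higher, where 24.9% of all tested genes were higher and 23.7% lower. Of 25 factors and targets tested, 10 rose and 2 fell in Doxo+Cyta+DAC relative to NT, 9 rose and 7 fell relative to Doxo, and 10 rose and 6 fell relative to Doxo+Cyta. These are 48.0%, 64.0% and 64.0% of the list, beside 48.7%, 59.5% and 60.3% of all tested genes, with median log2 fold changes of 0.23, 0.05 and 0.05. PRDX1, a peroxidase, rose from 149 ± 14.6 CPM in NT (n = 2) to 391 ± 24.2 CPM (SD, n = 4; log2 fold change 1.39, SE 0.20, adjusted p = 7.78e-05, edgeR), and SLC7A11, the cystine importer, from 10.1 ± 1.98 to 28.1 ± 7.26 CPM (1.47, SE 0.23, adjusted p = 0.000192). HMOX1, the inducible heme oxygenase, went the other way: it was highest in Doxo, at 31.8 ± 4.03 CPM (n = 3), against 11.3 ± 0.157 CPM in NT (n = 2; log2 fold change 1.49, SE 0.17, adjusted p = 0.000407, edgeR) and 10.4 ± 1.02 CPM in Doxo+Cyta+DAC (n = 4; -1.62 relative to Doxo, SE 0.14, adjusted p = 7.79e-07). MAFG, a partner of NRF2 on DNA, fell from 158 ± 0.658 CPM in NT to 89.9 ± 3.01 CPM in Doxo+Cyta+DAC (-0.81, SE 0.15, adjusted p = 0.000637, edgeR).

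Of 9 proteins that take electrons from POR or help those that do, 3 rose in Doxo+Cyta+DAC relative to NT, 4 rose and 3 fell relative to Doxo, and 3 rose and 2 fell relative to Doxo+Cyta. The called shares were 33.3%, 77.8% and 55.6%, beside 48.7%, 59.5% and 60.3% of all tested genes, with median log2 fold changes of -0.12, -0.28 and 0.08. HMOX2, the constant form of heme oxygenase, rose from 11.9 ± 1.35 CPM in NT (n = 2) to 23.6 ± 2.57 CPM (SD, n = 4; log2 fold change 0.99, SE 0.18, adjusted p = 0.000571, edgeR). PGRMC1, a heme protein that binds cytochromes P450, rose from 31.3 ± 0.407 CPM in Doxo (n = 3) to 59.8 ± 2.35 CPM (n = 4; log2 fold change 0.94, SE 0.09, adjusted p = 2.59e-06, edgeR). HMOX1, described above, also belongs to this list and was among those that fell.

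The relapses without decitabine held fewer changes in these lists. In Doxo relative to NT, where 10.7% of all tested genes were called, 9 of 42 S-phase genes fell (median log2 fold change of the list -0.36, beside 0.01 for all tested genes), 6 of 25 genes of the NRF2 list rose (median 0.26), and 1 rose and 3 fell among 21 genes of break repair (median -0.07). PRKDC was 575 ± 18.7 CPM in NT (n = 2) and 310 ± 76.2 CPM in Doxo (SD, n = 3; log2 fold change -0.89, SE 0.18, adjusted p = 0.00905, edgeR). Without NT replicate 1 or 2 its log2 fold change was -0.93 or -0.86, in fits with a lone NT sample whose calls are not given. In Doxo+Cyta relative to NT, where 1.46% of all tested genes were called, 2 S-phase genes and 2 genes of break repair fell, and 1 gene of the NRF2 list rose and 1 fell. Without Doxo replicate 4 and Doxo+Cyta replicate 20, 31 S-phase genes, 14 genes of the NRF2 list and 12 genes of break repair were called in either direction in Doxo, and 25, 6 and 7 in Doxo+Cyta, where the share of all tested genes had itself gone up to 37.4% and 14.5%.

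The genes whose pattern over the 12 libraries came nearest to that of each called gene were taken by the root-mean-square difference of log2 CPM, each gene centred on its own mean. For TOP2A these were GOLIM4 and FYCO1 (0.064 and 0.075), for TOP2B ICE2 and ANAPC1 (0.067 and 0.069), and for TDP1 FANCI and TSPAN5 (0.08 and 0.095), against SDs of 0.27, 0.35 and 0.25 for the 3 genes themselves. CBR1 was nearest to IMP3 and MED11 (0.092 and 0.101), POR to POLR2F and NUDC (0.1 and 0.107), and NQO1 to SPTAN1 and ITGB1BP1 (0.156 and 0.162). The gene nearest to TDP2 was C6orf62 (0.095), which lies 37973 bases from it, followed by MCUR1 on the same chromosome (0.12). None of the genes named here is another of the 10.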

How the data were processed

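HEL cells were sequenced as 100-base read pairs from TruSeq libraries. The authors checked reads with FastQC, filtered them, aligned them to GRCh38 with Bowtie2 2.2.8 and counted fragments on exons with featureCounts 1.6.0 without regard to strand. The deposited values are these whole-number counts, not normalized. Fragments on more than 1 gene are left out by the default of that tool. Of 26485 genes, 4 lacked a count. Groups came from the sample labels. The series describes 1 more NT replicate than is labelled, and 1 more library named in the file header was not analysed here.

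All 12 libraries entered 1 quasi-likelihood fit in edgeR 4.0.16 (R 4.3.3; filterByExpr, TMM scaling, two-sided, Benjamini-Hochberg over 14164 genes, called at an adjusted p under 0.05). The script was tested on simulated data. CPM and RPKM were computed from the counts, RPKM with the deposited exon lengths, log2 CPM with a prior count of 2. Antisense overlap was also counted in GENCODE 44 transcripts. Ratios were compared by exact permutation tests. The 10 genes and the lists were chosen with earlier results of these data known. Cell cycle lists were taken from Seurat 5.3.0. Named were all 10 genes, the 2 largest called changes per list, direction and comparison with at least 1 CPM, and the 2 nearest genes by pattern, of which fewer are printed. Alternatives were DESeq2 1.42.0, RLE and upper-quartile scaling, no or a stricter filter, only the groups compared, thinned libraries, a stricter threshold and leaving out replicates.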

Additional observations from a re-analysis of the deposited data

How the results depend on the processing

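The 19 called differences of the 10 genes kept their direction in all 380 recomputed values, and 355 also stayed past the threshold. TOP2B, NQO1 and POR relative to both other relapses, POR relative to NT, TDP1 relative to Doxo+Cyta and CBR1 relative to Doxo were called in all 20 alternatives. Of 41 differences not called, with 820 values, 19 values passed. At an adjusted p under 0.01 and a fold change over 2, relative to NT 0 genes were called in Doxo and 0 in Doxo+Cyta, and for Doxo+Cyta+DAC 1 relative to NT, 2 relative to Doxo and 1 relative to Doxo+Cyta. Relative to NT in Doxo+Cyta, DESeq2 called 3 and an edgeR fit with only those groups 0, where 6.2% and 0.0951% of the genes with an adjusted p were called. Leaving out both libraries that stand apart, added after the data were seen, gave 3 in Doxo and 2 in Doxo+Cyta, where 37.4% and 14.5% of the tested genes passed. Leaving out 1 treated replicate at a time gave 0 to 2 in Doxo relative to NT, 0 to 2 in Doxo+Cyta and 3 to 4 in Doxo+Cyta+DAC. The share of all tested genes called ranged as well, from 3.27% to 22.2%, 0.184% to 5.04% and 44.4% to 54.9%. With an NT replicate left out, the lone NT sample was assumed to vary like the other groups, so those counts are not given. The small ratio differences between Doxo+Cyta and Doxo changed sign: for TOP2A to TOP2B, -0.09 in log2, from -0.26 to 0.13 with 1 replicate left out (0.13 without Doxo+Cyta replicate 20), and for CBR1 to CBR3, 0.13, from -0.23 to 0.35 (-0.23 without Doxo+Cyta replicate 19, -0.03 without Doxo replicate 5). Of 101 named differences of other genes, 66 were called in every alternative and 0 reversed. No scaling moved the median of all genes by more than 0.089. No paired analysis was possible because the groups share no replicate numbers. CBR3, NQO1 and AKR1C3 are limited most by depth, and 2 NT libraries by number.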

Other observations

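TDP2 was highest in Doxo+Cyta+DAC replicate 31, and its nearest gene by pattern, C6orf62, is a neighbor on the chromosome, so the region was looked at after these values had been seen. Of 11 tested genes within 1000000 bases of TDP2 (itself included), 8 had their highest level of the 4 Doxo+Cyta+DAC libraries in replicate 31, where 27.6% of all tested genes did. TDP2 there was 1.47 times the mean of the other 3 libraries, C6orf62 1.46 times, GMNN, an inhibitor of replication licensing, 1.39 times and SCGN, a calcium-binding protein 985313 bases away, 1.53 times. The exceptions were GPLD1, ALDH5A1 and FAM65B at 0.8, 1.02 and 1.1 times. The median difference of the 11 genes was 0.47 on the log2 scale, against 0.0 for all tested genes. TDP2 and C6orf62, whose values led to this region, are among the 8 genes and enter that median. Replicate 31 is 1 library, neighboring genes are not independent, and the copy number of the region was not measured in these files.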
